A study of Homo sapiens with 18 samples.

Results

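The human mitochondrial genome carries 37 genes, and all of them were listed in the deposited count tables. They were taken as every gene symbol that starts with MT-, which gave 37 of 40916 listed symbols: 13 mRNAs, 2 rRNAs and 22 tRNAs. The study grew MCF10A cells, an immortalised non-tumour mammary epithelial line that here carried a histone H2B-GFP reporter, and unlabelled HCT116 colon carcinoma cells, each alone and together. Both lines and the mixture were left non-irradiated (NIR) or given 10 Gy of ionising radiation (IR), with 3 biological replicates in each of the 6 groups, and total RNA was sequenced from poly(A)-selected, strand-marking libraries. Sample titles place the harvest on day 2, whereas the series text gives 72 hours after irradiation, so the time is uncertain between them. MCF10A grew in F12:DMEM medium with horse serum, EGF, hydrocortisone, cholera toxin and insulin, and HCT116 in McCoy's 5A medium with fetal bovine serum, so line and medium cannot be told apart. For the mixed cultures no medium is given. Nothing in the labels says whether the biological replicates were separate thaws or parallel dishes, so p-values measure the spread between these libraries only.

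Mitochondrial DNA is copied and transcribed inside the organelle. Each strand is read from a promoter region as a long precursor. The tRNAs that lie between most genes are cut out to release the rRNAs and mRNAs, most of which then receive short A tails. All of the mRNAs encode membrane subunits of the respiratory chain or of ATP synthase, and the rRNAs form the core of the mitochondrial ribosome. Every other protein of these machines, and the polymerase that transcribes the genome, is encoded in the nucleus.

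Total counts ran from 25737818 to 40839835 per library. Values below are in CPM, a gene's counts scaled to one common library total, unless said otherwise, and fold changes come from edgeR's quasi-likelihood test on the counts with trimmed-mean (TMM) scaling, 2-sided, with Benjamini-Hochberg adjustment over all genes tested; a call is an adjusted p under 0.05. The non-irradiated libraries fitted their line labels. All 10 basal mammary marker genes were higher in every non-irradiated MCF10A library than in every non-irradiated HCT116 library. Of 10 intestinal markers, 5 were higher in every non-irradiated HCT116 library. The basal markers were all called lower in HCT116 without and with irradiation, beside 36.1% and 36.8% of all genes. Intestinal markers were called higher in 4 of 4 tested without and 3 of 4 with irradiation, beside 38.7% and 38.1%. CDX1 and ASCL2 were at 0 in HCT116 with and without irradiation. By mean, 8 of the 10 intestinal markers lay under 1 CPM in HCT116 in either condition. Without irradiation the list summed to 12.4 to 13.3 CPM there, with CDX2 at a mean of 10.0. The mixed cultures, described as 50-50, held an estimated 0.399% to 0.503% of MCF10A RNA without irradiation and 1.17% to 1.29% with it, estimated from genes expressed in 1 line only. By this estimate HCT116 RNA made up nearly all of the mixed libraries.

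The genes are packed almost without gaps, which bears on how reads can be assigned to them. On the heavy-strand transcript MT-ATP8 (chrM:8366-8572, GRCh38, plus strand) runs into MT-ATP6 (chrM:8527-9207) with 46 shared bases, and MT-ND4L (chrM:10470-10766) into MT-ND4 (chrM:10760-12137) with 7. Both pairs are each kept on 1 RNA in cells. A read within the shared bases belongs to both genes, and how the counter treated such reads is not given in the sources used here. The whole MT-ATP8 mRNA is printed from the GENCODE 29 transcripts because it had the widest spread between replicates of the 15 mRNA and rRNA members, with the part it shares with MT-ATP6 in capitals, followed by the last 30 bases of MT-ND4L with the MT-ND4 overlap in capitals.
MT-ATP8: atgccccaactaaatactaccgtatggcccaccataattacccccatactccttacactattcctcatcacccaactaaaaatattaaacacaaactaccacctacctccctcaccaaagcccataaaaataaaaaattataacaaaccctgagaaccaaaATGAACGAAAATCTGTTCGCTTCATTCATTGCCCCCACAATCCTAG
MT-ND4L: gtacataacctaaacctactccaATGCTAA

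Of the 13 annotated mRNAs, 6 end before their stop codon is complete, and the A tail supplies the missing letters. The last 15 bases of these 6 are shown with the letters of the unfinished stop in capitals, followed by 2 of the 7 members that end on 3 stop letters, MT-CO1 and the light-strand MT-ND6, also in capitals. The first 6 are shown because the libraries were selected on A tails, and a tail supplies their last stop letters. Where an A tail of MT-CO1 or MT-ND6 starts, or whether they carry one, was not tested.
MT-ND1: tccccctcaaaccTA
MT-ND2: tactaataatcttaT
MT-CO3: attgatgagggtctT
MT-ND3: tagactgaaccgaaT
MT-ND4: ccgggttttcctctT
MT-CYB: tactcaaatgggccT
MT-CO1: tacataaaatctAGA
MT-ND6: gctcgggggaatAGG
The irradiation response did not separate by this feature in HCT116, where the unfinished members spanned log2 changes of 0.25 to 0.94 and the finished ones 0.25 to 0.90.

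In every line the irradiated libraries gave a larger part of their counts to the mitochondrial genome. In MCF10A the 37 genes took 5.10%, 5.14% and 5.32% of the counts in the non-irradiated libraries and 6.18%, 6.35% and 6.06% in the irradiated ones. HCT116 held 8.67%, 8.42% and 8.75% without and 12.3%, 12.2% and 11.5% with irradiation. For the mixed cultures the shares were 8.52%, 8.73% and 8.37% and 12.7%, 12.1% and 12.0%. Irradiated and non-irradiated libraries did not overlap in any of the 3 cultures. As mean ± SD over 3 libraries, the share went from 5.19% ± 0.116 to 6.20% ± 0.146 in MCF10A, from 8.62% ± 0.172 to 12.0% ± 0.430 in HCT116 and from 8.54% ± 0.177 to 12.3% ± 0.354 in the mixture, ratios of 1.19, 1.39 and 1.44. Such a share is relative: more mitochondrial RNA per cell and less nuclear-encoded mRNA per cell cannot be told apart in bulk libraries of this kind.

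The mRNAs and the rRNAs did not share in this equally. In MCF10A the 13 mRNAs rose from 4.60% ± 0.0867 to 5.21% ± 0.0744 of the counts, a ratio of 1.13, while the 2 rRNAs went from 0.579% ± 0.0302 to 0.983% ± 0.0710, a ratio of 1.70. In HCT116 the 2 ratios lay closer together, 1.37 for the mRNAs and 1.50 for the rRNAs, and in the mixed cultures they were 1.44 and 1.42. The rRNAs thereby made up 11.2% ± 0.333 of all mitochondrial counts in non-irradiated MCF10A and between 15.6% ± 0.581 and 16.9% ± 0.152 in the non-irradiated groups with HCT116. Mitochondrial rRNAs carry only short A tails, so what a poly(A) selection recovers of them need not follow their amount in the cell.

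**Figure D1:**
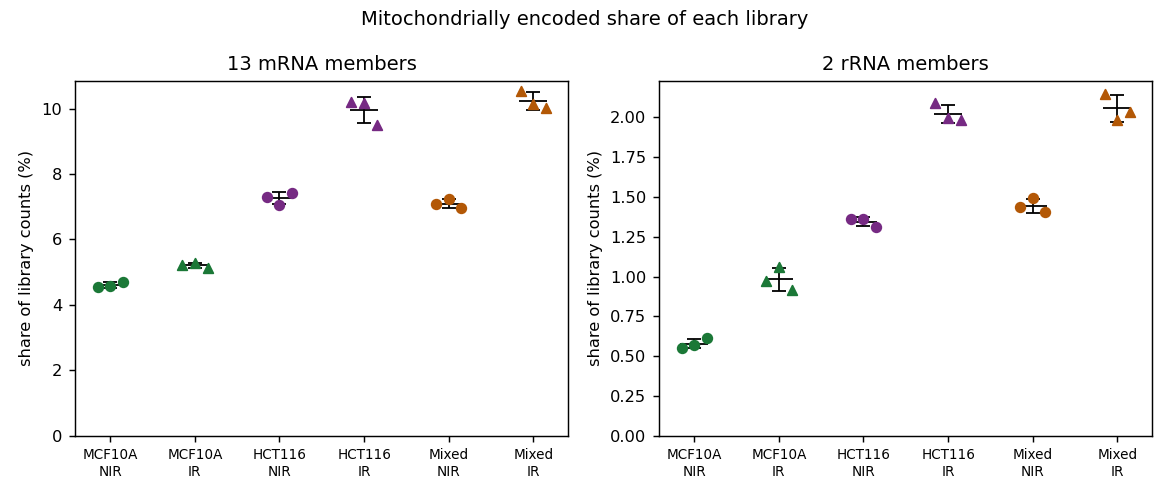
Share of all counts in a library that fell on the 13 mitochondrial mRNAs (left) and the 2 mitochondrial rRNAs (right), in percent, for 3 libraries in each group (circles NIR, triangles IR; horizontal marks are means and bars SD). Irradiated libraries lie above the non-irradiated ones of the same culture in both panels, and the HCT116 and mixed libraries lie above all MCF10A libraries.

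Gene by gene, the irradiation response of the mRNAs and rRNAs ran upward in HCT116 and split in MCF10A. In MCF10A, 11 of the 15 mRNA and rRNA members were called higher and 3 lower, where 26.2% of all 15154 genes tested were called higher and 29.2% lower. In HCT116 all 15 were called higher, against 25.3% of 16857 genes. In the mixed cultures all 15 were again called higher, against 24.0% of 16906 genes. The median log2 change of the 15 was 0.17 in MCF10A, 0.65 in HCT116 and 0.52 in the mixture, beside medians over all genes of 0.0035, 0.0072 and 0.012. DESeq2 called 14 of the 15 in HCT116, leaving out MT-ATP8.

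**Figure D2:**
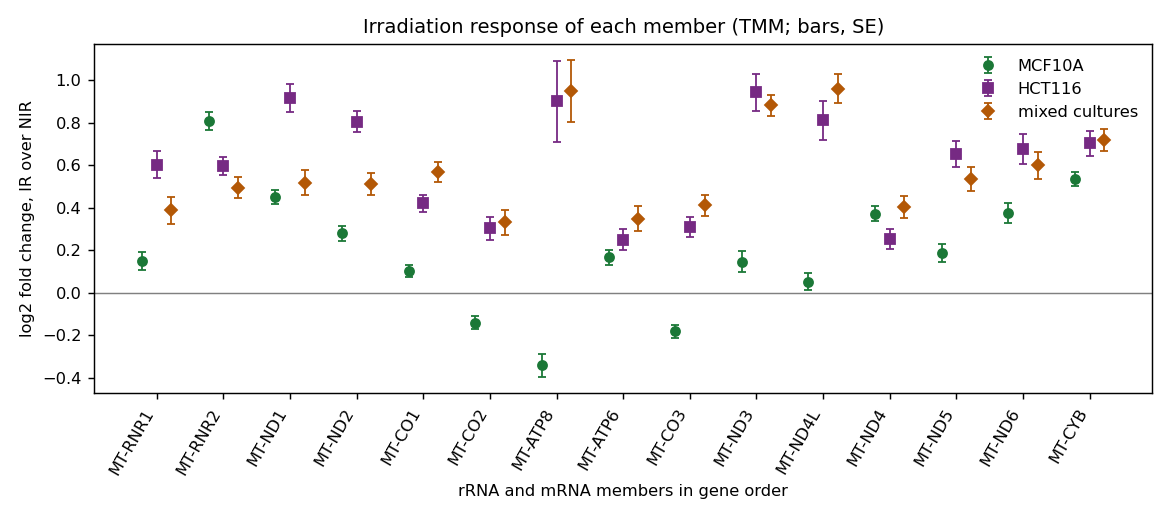
Log2 fold change of IR over NIR for the 15 rRNA and mRNA members, in their order along the genome, in MCF10A (circles), HCT116 (squares) and mixed cultures (diamonds); bars are SE. MCF10A values lie between -0.34 and 0.81 with MT-CO2, MT-ATP8 and MT-CO3 below 0, whereas every HCT116 and mixed value is above 0.

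MT-RNR2, the 16S rRNA of the large ribosomal subunit, had the largest rise of the 15 in MCF10A. Its level was 4883, 5009 and 5413 CPM in the non-irradiated libraries and 8921, 9788 and 8464 CPM in the irradiated ones, with no overlap and a log2 change of 0.81 (SE 0.042, adjusted p = 1.9e-15). HCT116 libraries went from 12363, 12253 and 12045 to 18925, 18141 and 17999.5 CPM, a log2 change of 0.59 (SE 0.042, adjusted p = 4.4e-11). MT-RNR1, the 12S rRNA of the small subunit, moved less in MCF10A, from 653, 698 and 710.2 to 801, 802 and 717 CPM, where the highest control stood just under the lowest irradiated library, and its log2 change was 0.15 (SE 0.044, adjusted p = 0.0052). In HCT116 both rRNAs rose alike, MT-RNR1 going from 1252, 1364 and 1092 to 1957, 1799 and 1840.1 CPM with a log2 change of 0.60 (SE 0.063, adjusted p = 2.9e-08). In the mixture MT-RNR1 went from 1753, 1428 and 1482 to 2097, 1989 and 2119.9 CPM and MT-RNR2 from 12621, 13484 and 12584 to 19383, 17866 and 18224 CPM, with log2 changes of 0.39 and 0.49.

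The 2 rRNAs come off the same precursor, one after the other, and the ratio of their levels per 1000 bases separated irradiated from non-irradiated libraries in MCF10A but not in the other cultures. MT-RNR2 over MT-RNR1 was 4.58, 4.39 and 4.66 in non-irradiated MCF10A and 6.82, 7.46 and 7.22 after irradiation. In HCT116 it was 6.04, 5.50 and 6.75 without and 5.92, 6.17 and 5.99 with irradiation, so the 2 groups overlapped. The mixed cultures gave 4.41, 5.78 and 5.20 without and 5.66, 5.50 and 5.26 with irradiation and overlapped too. Before irradiation every MCF10A library lay below every HCT116 library, but mixed replicate 1 fell among the MCF10A values.

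Complex I, the NADH dehydrogenase that feeds electrons into the chain, takes 7 of its core subunits from this genome. In MCF10A all 7 had positive log2 changes and 6 were called, MT-ND4L at 0.053 (SE 0.041, adjusted p = 0.281) being the one that was not. The call of MT-ND3, at 0.15 (SE 0.050, adjusted p = 0.015), was lost without non-irradiated replicate 2 (0.084, adjusted p = 0.122), irradiated replicate 1 (0.12, adjusted p = 0.095) or irradiated replicate 2 (0.12, adjusted p = 0.072), and MT-ND4L was called without non-irradiated replicate 1 (0.11, adjusted p = 0.025) and with upper-quartile factors (0.14, adjusted p = 0.0054). In HCT116 and in the mixed cultures all 7 were called higher, with medians of 0.80 and 0.53. The smallest of the 7 in HCT116 was MT-ND4 and the largest MT-ND3.

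MT-ND1, which together with the other ND subunits builds the membrane arm, stood at 1828, 1747 and 1822 CPM in non-irradiated and 2511, 2445 and 2517 CPM in irradiated MCF10A, a log2 change of 0.45 (SE 0.033, adjusted p = 3.4e-12). In HCT116 it went from 2660.0, 2569 and 3110.2 to 5675, 5027 and 4931 CPM, a log2 change of 0.91 (SE 0.066, adjusted p = 6.3e-11). MT-ND3, a short subunit, went from 804, 901 and 1131 to 1980.3, 1731 and 1711 CPM in HCT116, 0.94 (SE 0.087, adjusted p = 3.6e-09). These are rises of close to 1 log2 unit with no overlap between groups. In MCF10A MT-ND3 moved from 597, 494 and 559 to 641, 634 and 577 CPM, and there the groups overlapped. MT-ND2 and MT-ND5 were called higher in all 3 cultures, with log2 changes of 0.28 and 0.19 in MCF10A, 0.80 and 0.65 in HCT116 and 0.51 and 0.53 in the mixture.

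MT-ND4L and MT-ND4 sit on 1 bicistronic mRNA, yet their counts did not move together. In HCT116 MT-ND4L went from 1477, 1432 and 2035 to 3116, 2783 and 2738 CPM, a log2 change of 0.81 (SE 0.091, adjusted p = 7.7e-08). MT-ND4 went from 13712, 13115 and 13186 to 16453, 16065 and 14866 CPM, a log2 change of 0.25 (SE 0.046, adjusted p = 7.7e-05). In MCF10A the order was the other way round: MT-ND4 rose from 6549, 6816 and 7319.8 to 8859, 9398 and 8923 CPM, a log2 change of 0.37 (SE 0.036, adjusted p = 7.7e-10), and MT-ND4L stood at 1151, 1017 and 1038 and 1163, 1118 and 1094 CPM. The largest response of any mRNA in the mixed cultures was that of MT-ND4L, from 1451, 1474 and 1818 to 3017, 3189 and 3187 CPM, a log2 change of 0.96 (SE 0.067, adjusted p = 1.6e-10). MT-ND4 in the mixture went from 12798, 13199.5 and 11737 to 17756, 16713 and 16349 CPM, a log2 change of 0.40 (SE 0.052, adjusted p = 1.3e-06).

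MT-ND6 is the single mRNA of the light strand (chrM:14149-14673, minus strand), so its precursor starts from another promoter than all the others. MCF10A libraries held 656, 752 and 781 CPM without and 987, 981 and 914 CPM with irradiation, 0.37 (SE 0.049, adjusted p = 1.7e-07). In HCT116 it went from 1427, 1413 and 1585 to 2141, 2647 and 2243 CPM, a log2 change of 0.68 (SE 0.068, adjusted p = 1.6e-08), and in the mixture from 1387, 1519.9 and 1639 to 2524, 2207 and 2281 CPM, a log2 change of 0.60 (SE 0.063, adjusted p = 8.1e-08). It rose in all 3 cultures with no overlap, as its heavy-strand neighbour MT-ND5 did. The library kit marks strand, but the strand setting of the count is not given in the sources used here.

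MT-CYB, cytochrome b and the only complex III subunit made in the organelle, had the largest mRNA response in MCF10A. It went from 2381, 2347 and 2385 CPM to 3490.4, 3559 and 3423 CPM, a log2 change of 0.54 (SE 0.032, adjusted p = 4.5e-14). HCT116 libraries went from 3509.7, 3403 and 3907 to 6312, 5759 and 5439 CPM, a log2 change of 0.70 (SE 0.060, adjusted p = 1.0e-09). The mixture went from 3852, 3733 and 3858 to 6766, 6351 and 6038 CPM, a log2 change of 0.72 (SE 0.051, adjusted p = 2.0e-10). In each culture the lowest irradiated library was above the highest control, and the coefficient of variation between the replicates of non-irradiated MCF10A was 0.879%.

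Complex IV, cytochrome c oxidase, had mRNAs that fell or hardly rose in MCF10A and rose in HCT116. Its catalytic subunit gene MT-CO1, which held the most counts of all the mRNAs in MCF10A and HCT116, went from 12697, 12542 and 12945 to 14198, 13739 and 13700.2 CPM in MCF10A, 0.10 (SE 0.028, adjusted p = 0.0024), the smallest called rise among the mRNAs there. MT-CO2 fell in MCF10A, from 4570.5, 4402 and 4373 to 4039, 4189.6 and 4066 CPM, a log2 change of -0.14 (SE 0.032, adjusted p = 5.0e-04). MT-CO3 fell as well, at -0.18 (SE 0.030, adjusted p = 1.0e-05). In HCT116 all 3 rose, MT-CO1 from 15456, 15070.3 and 14584 to 20138, 20151 and 19734 CPM (0.42 on the log2 scale), MT-CO2 by 0.30 and MT-CO3 by 0.31. In the mixture MT-CO1 went from 12752, 13594 and 12967 to 19381, 19954 and 19981 CPM (0.57), and MT-CO2, the smallest mRNA response there, from 6603, 6791 and 5838 to 8747, 7882 and 8005 CPM (0.33). The small MCF10A changes moved with the scaling: with upper-quartile factors, which put the median of all genes at 0.088 on the log2 scale, MT-CO2 stood at -0.055 (adjusted p = 0.143) and lost its call, MT-CO3 at -0.096, MT-CO1 at 0.188, MT-ATP6 at 0.251, MT-RNR1 at 0.234 and MT-ND3 at 0.231. That scaling also put 57.5% of all called genes on the higher side, against 47.4% with TMM.

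Complex V, the ATP synthase, takes MT-ATP6 and MT-ATP8 from this genome, both membrane subunits of its proton channel part. MT-ATP6 rose in MCF10A from 3318, 3558 and 3609 to 3885, 4154 and 3902 CPM, a log2 change of 0.17 (SE 0.037, adjusted p = 3.8e-04). In HCT116 it had the smallest response of all the mRNAs, from 8621, 7892 and 8038 to 9742, 10039 and 9260.1 CPM, a log2 change of 0.25 (SE 0.048, adjusted p = 1.3e-04), and in the mixture it went from 8077, 8358 and 7152 to 10675, 10370.4 and 9536 CPM, a log2 change of 0.35 (SE 0.058, adjusted p = 3.7e-05). Its counts are uncertain because of a near-identical copy in the nuclear genome. That copy, MTATP6P1, was counted at 304 ± 48.8 CPM in non-irradiated MCF10A and 719 ± 112 CPM in non-irradiated HCT116, and reads that fit both places may have been split or dropped. Of 404 nuclear copies of mitochondrial genes listed in the tables, 217 had no count. In any group 3 reached 10 CPM, MTATP6P1, MTCO1P12 and MTND2P28, so that MT-CO1 and MT-ND2 share this limit. Dropped reads would be counted at neither place, so a low count on a copy does not free the other members of it. All copies together came to between 0.577% and 0.895% of the mitochondrial counts. MTCO1P12 was called higher in irradiated MCF10A (0.65, SE 0.13, adjusted p = 1.1e-04). MTND2P28 was called higher in HCT116 (0.57, SE 0.21, adjusted p = 0.028) and the mixture (0.32, SE 0.13, adjusted p = 0.048), in both cases not under DESeq2 and not without any one of 3 libraries in HCT116 and 5 in the mixture. The lowest of these values was 0.13 with adjusted p = 0.593 in HCT116 without irradiated replicate 2.

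MT-ATP8 fell in MCF10A and rose in the other cultures, but it was also the least repeatable of the 15 mRNA and rRNA members. Its coefficient of variation within groups had a median of 24.4%, where the other 14 mRNA and rRNA members had medians of 1.85% to 7.71%. In MCF10A it went from 1000, 1057 and 956 to 789, 909.8 and 715 CPM with no overlap, a log2 change of -0.34 (SE 0.056, adjusted p = 7.8e-06). HCT116 gave 1202, 954 and 1941 CPM without and 2167, 3599 and 1844 CPM with irradiation, so that the highest control lay above the lowest irradiated library; the log2 change was 0.90 (SE 0.19, adjusted p = 3.6e-04) and dropped to 0.56 (adjusted p = 0.0092) without irradiated replicate 2. DESeq2 did not call it, at 0.91 (adjusted p = 0.076). In the mixture it went from 1015, 948 and 1765 to 2767, 2391 and 2171 CPM, a log2 change of 0.95 (SE 0.15, adjusted p = 1.3e-05).

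Replicate 3 of both non-irradiated cultures with HCT116 stood apart at the short members. Per 1000 bases, MT-ATP8 over MT-ATP6 was 0.459, 0.398 and 0.794 in HCT116 and 0.413, 0.373 and 0.812 in the mixture, and MT-ND4L over MT-ND4 was 0.500, 0.507 and 0.716 and 0.526, 0.518 and 0.719. After irradiation MT-ATP8 over MT-ATP6 was 0.732, 1.18 and 0.655 in HCT116 and 0.853, 0.758 and 0.749 in the mixture, replicate 2 of HCT116 being the highest of all 18 libraries. MT-ND4L over MT-ND4 then lay at 0.879, 0.804 and 0.854 and 0.788, 0.885 and 0.904, above every non-irradiated library of the same culture. In MCF10A both ratios went the other way, from 0.992, 0.977 and 0.871 to 0.668, 0.721 and 0.603 for MT-ATP8 and from 0.815, 0.692 and 0.658 to 0.609, 0.552 and 0.569 for MT-ND4L. MT-ATP8 has 207 annotated bases and MT-ND4L 297, and paired reads were 150 bases long; the part that fragment length plays in these ratios was not tested.

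**Figure D3:**
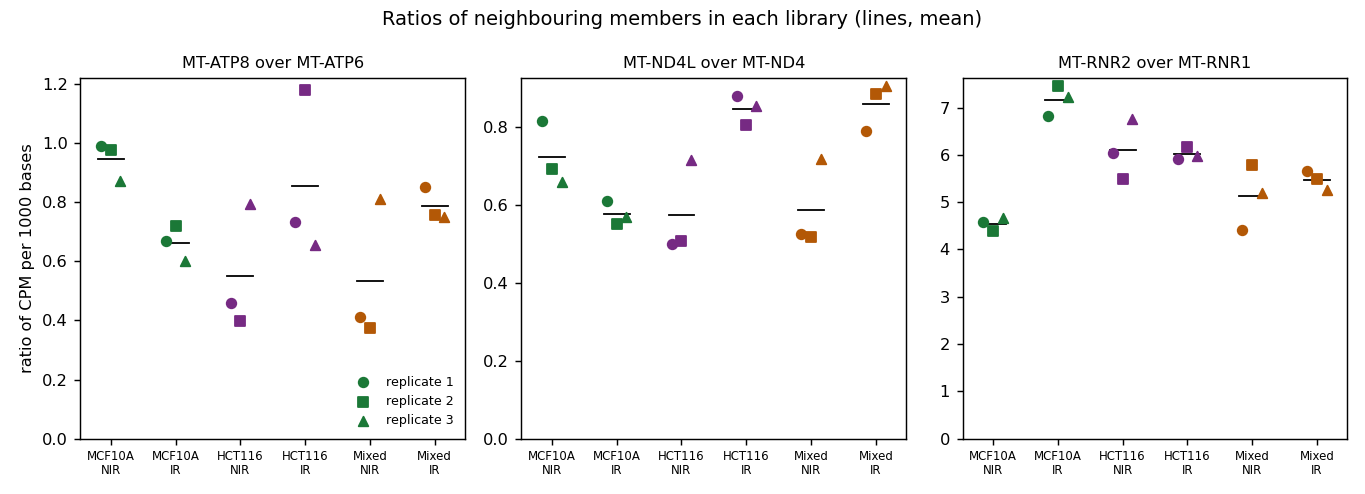
Ratio of CPM per 1000 bases between neighbouring members in each library: MT-ATP8 over MT-ATP6 (left), MT-ND4L over MT-ND4 (middle) and MT-RNR2 over MT-RNR1 (right); symbols mark the replicate number and lines the mean of 3. Replicate 3 of the non-irradiated HCT116 and mixed groups lies above the other replicates in the left and middle panels, and irradiated MCF10A lies above its controls in the right panel.

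Transfer RNAs were hardly counted, apart from one. The 22 genes summed to 45643 counts over the 18 libraries, of which MT-TP, the proline tRNA of the light strand, held 44442 or 97.4%. Light-strand tRNAs as a group, 8 genes, held 99.4%, and the 14 heavy-strand tRNAs 271 counts in all. No count fell on MT-TV, MT-TQ or MT-TG in any library. Every one of the 14 heavy-strand tRNAs has another gene of its strand within 2 bases. MT-TP has the highest coordinates of the light-strand genes and lies 1213 bases from the next lower one. MT-TQ has the lowest coordinates of that strand, lies 1186 bases from the next one and had no count. MT-TS1, with 1554 and 6634 bases to its neighbours on that strand, had 2 counts. Distances across the ends of the linear coordinates of this circular genome were not measured. Whether spacing bears on the counts was not tested. Mature tRNAs are short and end in CCA rather than in an A tail; which RNA the counts come from was not tested. The sequences of MT-TP, of MT-TY, the next most counted, and of MT-TT, the heavy-strand gene that faces MT-TP, are shown in lower case as encoded, 5′ to 3′ on their own strand.
MT-TP: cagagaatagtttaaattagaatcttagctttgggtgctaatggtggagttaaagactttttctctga
MT-TY: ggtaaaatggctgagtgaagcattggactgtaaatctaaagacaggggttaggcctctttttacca
MT-TT: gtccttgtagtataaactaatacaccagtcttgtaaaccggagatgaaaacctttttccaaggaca

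MT-TP (chrM:15956-16023, GRCh38, minus strand) rose in both cultures with HCT116 cells and fell in MCF10A. In HCT116 it went from 38.9, 50.5 and 63.9 to 145, 118 and 116 CPM with no overlap, a log2 change of 1.32 (SE 0.12, adjusted p = 1.8e-09), a larger change than that of any mRNA or rRNA there. In the mixture it went from 46.4, 48.7 and 80.3 to 146, 127 and 126 CPM, a log2 change of 1.16 (SE 0.13, adjusted p = 2.5e-07). MCF10A had 44.5, 36.1 and 39.2 CPM without and 36.3, 35.4 and 26.1 CPM with irradiation, which overlapped; the fall of 0.32 on the log2 scale (adjusted p = 0.0058) lost its call without non-irradiated replicate 1 (-0.24, adjusted p = 0.063) or irradiated replicate 3 (-0.18, adjusted p = 0.093). MT-TY was counted at 0.235, 0.394 and 0.0683 CPM in non-irradiated and 0.147, 1.64 and 0.706 CPM in irradiated MCF10A, and at 2.84, 1.18 and 1.45 and 1.28, 0.465 and 0.738 CPM in HCT116. At 2 to 98 counts a library, these MT-TY values rest on few reads.

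Before irradiation the lines already differed. The mitochondrial share of HCT116 was 1.66 times that of MCF10A without and 1.94 times with irradiation. Of the 15 mRNA and rRNA members, 13 were called higher in non-irradiated HCT116, where 38.7% of 16568 genes were called higher. edgeR called 0 lower, with 0 at an unadjusted p under 0.05, and DESeq2 called 0. MT-RNR2 led the 15 at 1.06 (SE 0.048, adjusted p = 8.7e-13), and MT-ATP6 was the highest mRNA at 1.03 (SE 0.051, adjusted p = 3.0e-12). Next came MT-ND6 at 0.82, MT-ND4 at 0.75, MT-CO3 at 0.66 and MT-RNR1 at 0.65. MT-CO1, at 0.042 (SE 0.043, adjusted p = 0.386), and MT-ATP8, at 0.25 (SE 0.16, adjusted p = 0.172), were not called; MT-ATP8 gave -0.11 (adjusted p = 0.183) without HCT116 replicate 3 and 0.46 (adjusted p = 0.0069) without replicate 2. MT-ND4L, called at 0.43, stood at 0.231 without HCT116 replicate 3. MT-TP, at 0.16 (SE 0.13, adjusted p = 0.291), was not called either, and gave -0.053 (adjusted p = 0.677) without HCT116 replicate 3 and 0.33 (adjusted p = 0.0067) without replicate 1.

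Part of the line difference depends on the scaling. In CPM, which divides by all counts, MT-CO1 was higher in every HCT116 library (15456, 15070.3 and 14584) than in every MCF10A library (12697, 12542 and 12945), while TMM scaling left a log2 difference of 0.042. With upper-quartile factors the median of all genes moved from 0.049 to 0.252, 62.4% instead of 51.8% of the called genes were on the HCT116 side, and MT-CO1 (0.24, adjusted p = 6.1e-05), MT-ATP8 (0.45, adjusted p = 0.016) and MT-TP (0.36, adjusted p = 0.019) were called, as they were with library size alone. In that scaling MT-CO2 stood at 0.496 instead of 0.29 and MT-ND2 at 0.499 instead of 0.30. Against its own median of all genes, MT-CO1 was thus close to the middle gene in both scalings, whereas MT-RNR2 and MT-ATP6 stood above it in both.

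After irradiation all 15 were called higher in HCT116 than in MCF10A, against 38.1% of 16932 genes. The differences ran from 0.30 (SE 0.037, adjusted p = 7.1e-08) for MT-CO1 to 1.43 (SE 0.14, adjusted p = 6.3e-10) for MT-ATP8, with MT-ND3 at 1.32, MT-ND4L at 1.13, MT-CO3 at 1.09, MT-ND6 at 1.06 and MT-ATP6 at 1.05. MT-CYB, at 0.51, and MT-ND4, at 0.57, were the next lowest after MT-CO1. With library size alone, MT-CO1 stood at 0.528, and 62.4% instead of 50.9% of all called genes were on the HCT116 side. MT-TP, at 1.73 (SE 0.094, adjusted p = 6.0e-15), differed by more than any mRNA. These contrasts share their libraries with the irradiation responses, so the values are not independent of them.

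The responses of the 2 lines were compared with each other in 1 fit over 12 libraries. Of the 15 members, 10 responded more strongly upward in HCT116 and 2 in MCF10A, where 15.4% of 18179 genes were called on the HCT116 side and 21.9% on the MCF10A side. MT-ATP8 had the largest difference, 1.16 (SE 0.26, adjusted p = 8.8e-04) on the log2 scale, followed by MT-ND3 with 0.72 (SE 0.12, adjusted p = 4.3e-05) and MT-ND4L with 0.68 (SE 0.12, adjusted p = 7.6e-05). MT-ND2 at 0.45, MT-CO3 at 0.41, MT-ND1 and MT-ND5 at 0.39 and 0.39, MT-RNR1 at 0.38, MT-CO2 at 0.36 and MT-CO1 at 0.24 were the others. MT-RNR2, at -0.29 (SE 0.067, adjusted p = 0.0011), and MT-ND4, at -0.20 (SE 0.065, adjusted p = 0.017), responded more in MCF10A. The 3 that were not called were MT-ATP6 (0.0068, SE 0.065, adjusted p = 0.978), MT-CYB (0.088, SE 0.076, adjusted p = 0.397) and MT-ND6 (0.22, SE 0.097, adjusted p = 0.075). A missing call does not show that these responded alike.

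This fit is centred below 0, with a median over all genes of -0.10, and 1 of the 2 calls on the MCF10A side was lost with another centring. With TMM factors taken from the genes other than the members, the median was -0.0048 and 52.6% instead of 41.3% of the called genes were on the HCT116 side. MT-ND4 then stood at -0.097 (adjusted p = 0.254), MT-ND6 was called at 0.32 (adjusted p = 0.011), and MT-RNR2 stood at -0.19. The call of MT-RNR2 was lost without irradiated MCF10A replicate 2 (-0.12, adjusted p = 0.124) or irradiated HCT116 replicate 2 (-0.18, adjusted p = 0.053). That of MT-ND4 was also lost without any one of 6 libraries: non-irradiated MCF10A replicate 1 (-0.16, adjusted p = 0.054), the 3 irradiated MCF10A libraries (-0.11, -0.063 and -0.11) and irradiated HCT116 replicates 2 and 3 (-0.11 and -0.15). MT-ND6 was called without any one of 7 libraries, at 0.23 to 0.35. MT-CYB was called without irradiated MCF10A replicate 2 (0.21, adjusted p = 0.050). The 10 calls on the HCT116 side held in all 12 fits that left out 1 library, which called 10 to 12 members there.

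How the mRNA pool was divided among its members was tested by setting each library's size to its summed mitochondrial mRNA counts. The rRNAs are measured against that sum but are no part of it. Among the mRNAs a gain of some goes with a loss of others, so their calls are not independent. In MCF10A, 6 of the 15 members gained on that sum after irradiation and 3 lost, where the same scaling called 17.6% of all genes higher and 40.3% lower; since nuclear genes are shifted by the scaling itself, that share is no level to read the members against. MT-RNR2 gained 0.65 (SE 0.040, adjusted p = 6.9e-17), MT-CYB 0.38 (SE 0.037, adjusted p = 3.5e-11), MT-ND1 0.29, MT-ND6 0.22, MT-ND4 0.22 and MT-ND2 0.12 on the log2 scale. MT-ATP8 at -0.50 (SE 0.054, adjusted p = 2.5e-10), MT-CO3 at -0.34 and MT-CO2 at -0.30 lost. Without irradiated replicate 3 the call of MT-ND2 was lost, at 0.093 (adjusted p = 0.070).

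HCT116 divided its pool differently. There 8 members gained and 4 lost, beside 7.40% and 56.5% of all genes. MT-ND3 gained 0.48 (SE 0.083, adjusted p = 3.5e-06), MT-ND1 0.45, MT-ATP8 0.44, MT-ND4L 0.35, MT-ND2 0.34, MT-CYB 0.24, MT-ND6 0.21 and MT-ND5 0.19. MT-ATP6 at -0.21 (SE 0.063, adjusted p = 0.0033), MT-ND4 at -0.21, MT-CO2 at -0.16 and MT-CO3 at -0.16 lost. Irradiated replicate 2 carried part of this: without it the calls of MT-ATP8 (0.12, adjusted p = 0.520), MT-ND6 (0.14, adjusted p = 0.173), MT-ND5 (0.12, adjusted p = 0.181), MT-CO2 (-0.087, adjusted p = 0.354) and MT-CO3 (-0.13, adjusted p = 0.132) were lost. Without non-irradiated replicate 2 those of MT-ATP8 (0.25, adjusted p = 0.169), MT-ND5 (0.16, adjusted p = 0.065), MT-CO2 (-0.12, adjusted p = 0.169) and MT-CO3 (-0.14, adjusted p = 0.074) were, and without non-irradiated replicate 3 MT-ATP8 stood at 0.76.

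In the mixed cultures 4 members gained and 2 lost, beside 6.22% and 59.6% of all genes. MT-ND4L gained 0.46 (SE 0.077, adjusted p = 1.8e-05), MT-ATP8 0.44, MT-ND3 0.38 and MT-CYB 0.21, and MT-CO2 (-0.17) and MT-ATP6 (-0.15) lost. MT-ATP8 lost its call without non-irradiated replicate 1 (0.31, adjusted p = 0.080), non-irradiated replicate 2 (0.26, adjusted p = 0.080) or irradiated replicate 1 (0.36, adjusted p = 0.077), and stood at 0.80 without non-irradiated replicate 3. MT-ATP6 lost its call without non-irradiated replicate 1 (-0.13, adjusted p = 0.065) or 2 (-0.12, adjusted p = 0.075) or irradiated replicate 3 (-0.12, adjusted p = 0.130), and MT-CO2 without irradiated replicate 2 (-0.15, adjusted p = 0.072). Cytochrome b gained on the sum in all 3 cultures, and MT-CO2 lost in all 3.

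**Figure D4:**
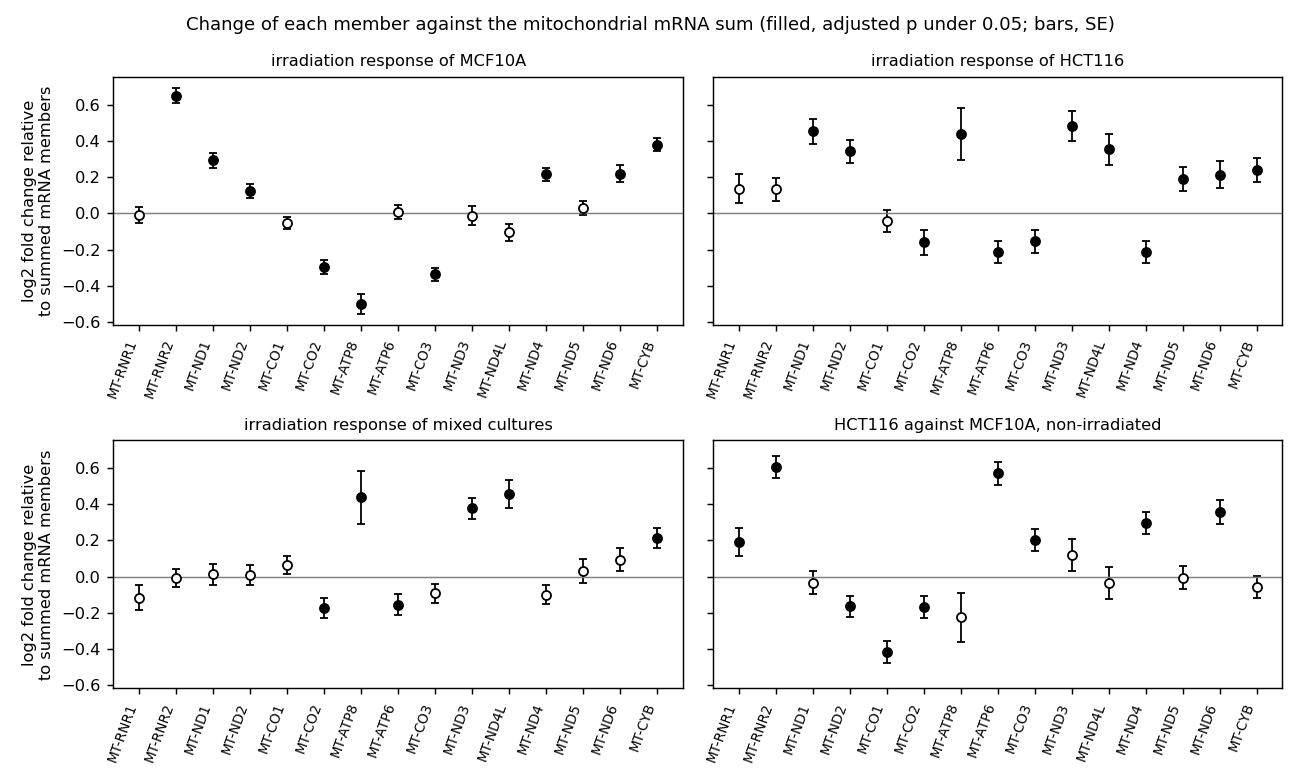
Log2 change of each rRNA and mRNA member relative to the summed mitochondrial mRNAs, for the irradiation response of MCF10A, HCT116 and mixed cultures and for non-irradiated HCT116 against MCF10A (filled, adjusted p under 0.05; bars, SE). MT-CYB lies above 0 and MT-CO2 below 0 in the 3 irradiation panels, while MT-ATP8 lies below 0 in MCF10A and above 0 in the other 2.

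Non-irradiated HCT116 and MCF10A also divided the pool differently. Of the 15, 6 stood higher against the mRNA sum in HCT116 and 3 lower, beside 25.4% and 53.1% of all genes. MT-RNR2 stood at 0.60 (SE 0.061, adjusted p = 2.3e-09) against the mRNA sum, MT-ATP6 at 0.57 (SE 0.061, adjusted p = 7.5e-09), MT-ND6 at 0.36, MT-ND4 at 0.29, MT-CO3 at 0.20 and MT-RNR1 at 0.19. MT-CO1 at -0.42 (SE 0.060, adjusted p = 1.0e-06), MT-CO2 at -0.17 and MT-ND2 at -0.16 were lower. The call of MT-RNR1 was lost without MCF10A replicate 1 (0.17, adjusted p = 0.106) or 3 (0.20, adjusted p = 0.052) or HCT116 replicate 2 (0.093, adjusted p = 0.244), and it stood at 0.289 without HCT116 replicate 3. That of MT-CO2 was lost without MCF10A replicate 1 (-0.14, adjusted p = 0.072) or HCT116 replicate 1 (-0.14, adjusted p = 0.069).

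Summed by complex, the split of the mRNA counts moved toward complex I and away from complex IV with irradiation. Complex I mRNAs made up 37.3% ± 0.747 of the mitochondrial mRNA counts in non-irradiated and 41.3% ± 0.367 in irradiated MCF10A, and 40.5% ± 0.580 and 43.3% ± 0.424 in HCT116. Complex IV mRNAs went from 47.8% ± 0.813 to 42.8% ± 0.707 in MCF10A and from 41.4% ± 1.24 to 38.6% ± 1.27 in HCT116. Neither pair of groups overlapped. In the mixture the irradiated and non-irradiated libraries overlapped for both, complex I going from 42.7% ± 0.778 to 43.2% ± 0.283 and complex IV from 39.1% ± 0.938 to 38.2% ± 0.584. Complex V mRNAs were 9.77% ± 0.309 of the sum in non-irradiated MCF10A and 13.1% ± 0.518 in non-irradiated HCT116.

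Scaled to annotated length, the heavy-strand mRNAs differed by several times in level although they leave the same precursor. In non-irradiated MCF10A the order ran from MT-CO1 at 8254 ± 132 CPM per 1000 bases through MT-CO2 at 6503 ± 156 and MT-CO3 at 6145 ± 107 down to MT-ND3 at 1589 ± 151 and the light-strand MT-ND6 at 1390.0 ± 125, a span of 5.94 times. The libraries of MT-ATP6, MT-ND4 and MT-ATP8, ranks 4 to 6, overlapped from one to the next, as did those of MT-ND2, MT-ND5 and MT-CYB and those of MT-ND3 and MT-ND6. In non-irradiated HCT116 MT-ATP6 came first at 12017 ± 566, ahead of MT-CO3 at 11163 ± 218 and MT-CO1 at 9752 ± 284, and MT-ND3 last at 2733 ± 486, a span of 4.40 times. MT-CO1 overlapped with MT-ND4 there, MT-ATP8 with both of its neighbours MT-CO2 and MT-ND4L, and all genes from MT-ND5 down overlapped with the next. After irradiation the span was 5.04 times in MCF10A, from MT-CO1 to MT-ND3, and 3.18 times in HCT116, from MT-ATP6 to MT-ND6. In HCT116, 10 of the 12 neighbouring pairs in this order overlapped after irradiation, against 8 before. The mixed cultures ran from MT-ATP6 to MT-ND6 as well, over 4.00 times without and 3.36 times with irradiation.

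**Figure D5:**
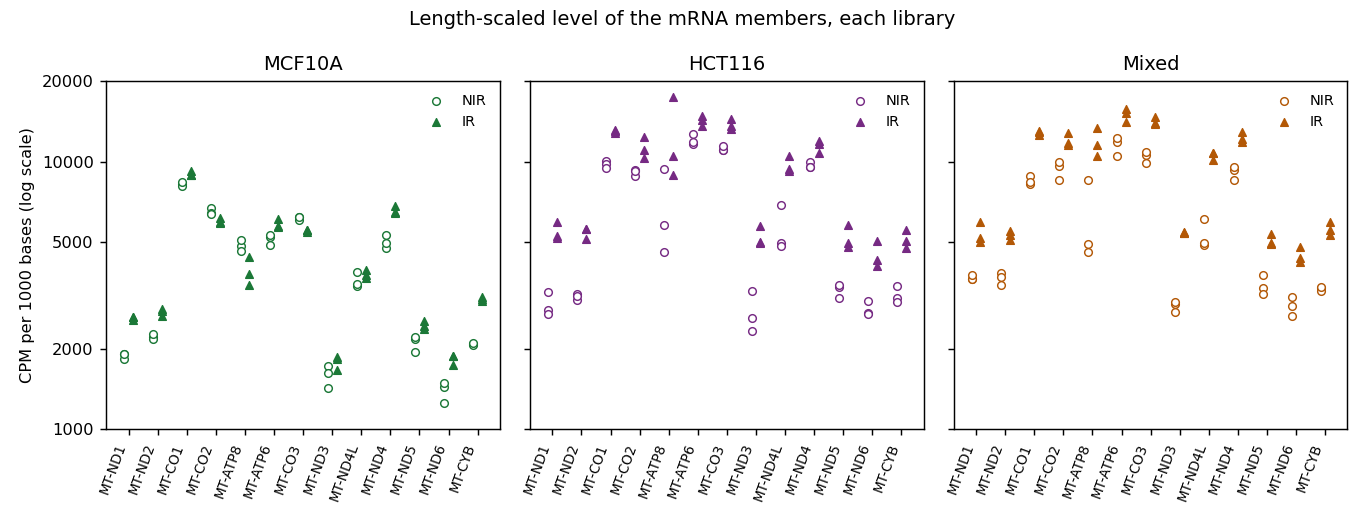
CPM per 1000 annotated bases of the 13 mRNA members in every library (log axis), in gene order, for MCF10A, HCT116 and mixed cultures (open circles NIR, filled triangles IR). By group mean MCF10A peaks at MT-CO1 while HCT116 and the mixture peak at MT-ATP6, although MT-ATP8 lies above MT-ATP6 in irradiated HCT116 replicate 2, and the scatter of MT-ATP8 is the widest of the 13 in the HCT116 and mixed panels.

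Most of the 15 members were not called between mixed cultures and HCT116 alone, but without irradiation a larger part was than of all genes. Without irradiation 3 of the 15 members were called higher in the mixture, MT-ND1 (0.36, SE 0.067, adjusted p = 0.0064), MT-RNR1 (0.35, SE 0.079, adjusted p = 0.026) and MT-ND2 (0.24, SE 0.055, adjusted p = 0.026), where 0.887% of 16455 genes were called higher and 1.15% lower. edgeR called 0 lower, with 1 at an unadjusted p under 0.05, and DESeq2 called 1. MT-ND1 held 3486, 3484 and 3607 CPM in the mixture and 2660.0, 2569 and 3110.2 CPM in HCT116, with no overlap. Leaving out 1 library ended single calls: MT-ND1 stood at 0.30 (adjusted p = 0.077) and MT-ND2 at 0.22 (adjusted p = 0.161) without HCT116 replicate 2. MT-ND2 was at 0.21 (adjusted p = 0.151) without mixed replicate 1 and 0.23 (adjusted p = 0.056) without mixed replicate 2. MT-RNR1 was at 0.35 (adjusted p = 0.063) and 0.27 (adjusted p = 0.098) without HCT116 replicates 1 and 3 and at 0.25 (adjusted p = 0.199) without mixed replicate 1. After irradiation MT-RNR1 alone was called, at 0.14 (SE 0.042, adjusted p = 0.035), against 5.08% of 17137 genes called higher and 3.48% lower, and its call was lost without HCT116 replicate 2 or 3 or mixed replicate 1 or 3, at log2 values of 0.12 to 0.13. The count of 1 was not stable: 4 members were called higher without a filter on low counts and 5 without HCT116 replicate 1, and 0 without HCT116 replicate 3 or mixed replicate 1 or 3.

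The response of the mixture differed from that of HCT116 in 1 of the 15 members. MT-ND2 responded less in the mixture, by -0.28 (SE 0.069, adjusted p = 0.048), where 0.149% of 18072 genes were called in that direction. Its levels were 3328, 3159.9 and 3278 CPM without and 5808, 5809 and 5351 CPM with irradiation in HCT116, and 3979.7, 3856 and 3595 and 5722, 5557 and 5322 CPM in the mixture, so the difference lay in the non-irradiated libraries. The call was not stable: the adjusted p lay between 0.055 and 0.12 without any one of 6 libraries (HCT116 non-irradiated replicate 2 and irradiated replicates 1 and 2, mixed non-irradiated replicate 1 and irradiated replicates 2 and 3), and the log2 difference between -0.31 and -0.27. The other 14 had differences of -0.38 to 0.16 and were not called. MT-ND1 had a larger difference than MT-ND2, at -0.38 (SE 0.097, adjusted p = 0.057), and 2 members instead of 1 were called under DESeq2, with TMM factors taken without the members and without a filter.

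Nuclear genes that copy mitochondrial DNA were mostly called lower in MCF10A and split in the other cultures. Calls over all genes were 26.2% higher and 29.2% lower in MCF10A, 25.3% and 27.2% in HCT116 and 24.0% and 25.4% in the mixture. The 10 genes of mitochondrial DNA replication were called 0 higher and 8 lower of 10 in MCF10A. They were called 3 higher and 4 lower of 10 in HCT116 and 2 higher and 5 lower of 10 in the mixture. In HCT116 and the mixture the shares higher, 30% and 20%, lay near those of all genes. Those lower, 40% and 50%, lay above them. In MCF10A no gene was called higher by edgeR in this list or in those of mitochondrial transcription, RNA processing, biogenesis and the mitochondrial ribosome, where 0, 0, 0, 0 and 0 genes were higher at an unadjusted p under 0.05 and DESeq2 called 0, 0, 0, 0 and 0. With upper-quartile factors edgeR called 1 RNA processing gene and 1 mitochondrial ribosome gene higher, and without non-irradiated replicate 2 it called 1 of the mitochondrial ribosome. TWNK, the replicative helicase, fell in MCF10A from 57.9 ± 2.16 to 39.2 ± 1.11 CPM (-0.59, SE 0.063, adjusted p = 6.8e-09). It rose in HCT116 from 59.5 ± 5.59 to 124 ± 4.22 CPM (1.07, SE 0.071, adjusted p = 1.5e-11) and in the mixture (0.86, SE 0.076, adjusted p = 6.1e-09), and the difference between the lines was 1.58 (SE 0.095, adjusted p = 2.4e-12). POLG, the catalytic subunit of the replicative polymerase, was not called in MCF10A (-0.097) or HCT116 (-0.17) and fell in the mixture (-0.25, SE 0.072, adjusted p = 0.0070), a call lost without irradiated replicate 2 (-0.19, adjusted p = 0.059). PRIMPOL, a primase-polymerase that also works in the nucleus, fell in all 3, by 1.06, 0.55 and 0.65 on the log2 scale.

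Among 9 genes of mitochondrial transcription, the calls were 0 higher and 5 lower of 9 in MCF10A, 4 higher and 2 lower of 9 in HCT116 and 2 higher and 3 lower of 9 in the mixture. Over all genes 26.2% were called higher and 29.2% lower in MCF10A, 25.3% and 27.2% in HCT116 and 24.0% and 25.4% in the mixture. The transcription list's shares in the mixture, 22.2% and 33.3% of 9 genes, lay near the latter. TFAM, which packages mitochondrial DNA and bends it at the promoters, fell in MCF10A from 164 ± 0.776 to 86.2 ± 2.65 CPM (-0.95, SE 0.047, adjusted p = 7.6e-16), while the mitochondrial share rose. In HCT116 its change was -0.16 (SE 0.066, adjusted p = 0.040), a call lost with upper-quartile factors, and also without HCT116 non-irradiated replicate 1 (-0.15, adjusted p = 0.092) or 2 (-0.14, adjusted p = 0.152) or irradiated replicate 1 (-0.13, adjusted p = 0.146) or 2 (-0.17, adjusted p = 0.080). It fell in the mixture (-0.42, SE 0.068, adjusted p = 2.9e-05). POLRMT, the mitochondrial RNA polymerase, was not called in MCF10A (-0.12, SE 0.069, adjusted p = 0.129), though it was without irradiated replicate 2 (-0.19, adjusted p = 0.033), and fell in HCT116 (-0.20, SE 0.061, adjusted p = 0.0075) and the mixture (-0.26, SE 0.062, adjusted p = 0.0015). TFB2M, which opens the promoter for the polymerase, was the largest riser in HCT116 (0.74, SE 0.082, adjusted p = 7.8e-08) and the mixture (0.61, SE 0.084, adjusted p = 3.4e-06), and MTERF3 the largest faller in MCF10A (-0.95, SE 0.097, adjusted p = 2.0e-09).

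The 20 genes that cut, bind, adenylate or degrade mitochondrial RNA were called 0 higher and 15 lower of 20 in MCF10A, 14 higher and 2 lower of 20 in HCT116 and 9 higher and 4 lower of 20 in the mixture, with median log2 changes of -0.30, 0.31 and 0.19. Among all genes tested the shares higher and lower were 26.2% and 29.2%, 25.3% and 27.2%, and 24.0% and 25.4% in the same order. LRPPRC, which binds and stabilises mitochondrial mRNAs, fell in MCF10A from 448 ± 7.38 to 377 ± 17.9 CPM (-0.27, SE 0.041, adjusted p = 2.3e-06) and rose in HCT116 from 617 ± 28.3 to 737 ± 15.8 CPM (0.26, SE 0.054, adjusted p = 2.6e-04) and in the mixture (0.19, SE 0.052, adjusted p = 0.0041). Its response differed between the lines by 0.45 (SE 0.066, adjusted p = 4.2e-06). SLIRP, its partner protein, was the largest faller in MCF10A (-0.77, SE 0.089, adjusted p = 2.4e-08). PDE12, which removes A tails, was the largest riser in HCT116 (0.84, SE 0.068, adjusted p = 4.3e-10), and PRORP, the nuclease that cuts the 5′ ends of tRNAs, in the mixture (0.77, SE 0.12, adjusted p = 1.1e-05). FASTK, whose mitochondrial form is needed for MT-ND6 mRNA, was the largest faller in both (-0.43 and -0.37), where MT-ND6 itself rose.

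Nuclear-encoded partners of the members fell widely in MCF10A. Of 77 mitochondrial ribosomal protein genes tested there, 62 were called lower and 0 higher, a median of -0.39 with MRPL48 the largest faller (-0.93, SE 0.10, adjusted p = 1.1e-08), while both rRNAs rose. HCT116 gave 22 higher and 11 lower of 76, from MRPS34 (-0.72) to MRPL33 (0.71), and the mixture 15 higher and 20 lower of 77, from MRPL9 (-0.80) to MRPS25 (0.56). The 74 nuclear genes of the respiratory chain and ATP synthase were called 1 higher and 38 lower of 74 in MCF10A, 12 higher and 16 lower of 74 in HCT116 and 10 higher and 23 lower of 74 in the mixture, with medians of -0.19, 0.032 and -0.068. All genes tested gave 26.2% higher and 29.2% lower in MCF10A, 25.3% and 27.2% in HCT116 and 24.0% and 25.4% in the mixture. The respiratory chain shares in HCT116, 16.2% and 21.6%, lay below these. The mitochondrial ribosome shares in the mixture, 19.5% and 26.0%, lay near them. In MCF10A ATP5MC2, a subunit of the c-ring of ATP synthase, was the largest faller (-0.66, SE 0.067, adjusted p = 2.2e-09), and NDUFS5 of complex I the 1 riser (0.16, SE 0.057, adjusted p = 0.021), a call lost without non-irradiated replicate 1 (0.098, adjusted p = 0.166) or irradiated replicate 2 (0.086, adjusted p = 0.232). NDUFV3 of complex I led the risers in HCT116 (0.92) and the mixture (0.65). UQCRC1 in HCT116 (-0.68) and CYC1 in the mixture (-0.72), both of complex III, were the largest fallers, where their mitochondrially encoded partner MT-CYB rose.

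Of 6 genes that supply mitochondrial nucleotides, the calls were 3 higher and 3 lower of 6 in MCF10A, 3 higher and 0 lower of 6 in HCT116 and 3 higher and 0 lower of 6 in the mixture. For all genes the shares were 26.2% and 29.2%, 25.3% and 27.2%, and 24.0% and 25.4% in the same order. The counts of 0 lower by edgeR stood beside 0 in HCT116 and 0 in the mixture at an unadjusted p under 0.05, and DESeq2 called 0 and 0. RRM2B, a small subunit of ribonucleotide reductase, rose in all 3: from 172 ± 8.14 to 267 ± 3.36 CPM in MCF10A (0.61, SE 0.043, adjusted p = 1.4e-12), from 191 ± 9.94 to 352 ± 18.8 CPM in HCT116 (0.89, SE 0.060, adjusted p = 1.7e-11) and by 0.82 in the mixture. TYMP, which breaks down thymidine, rose most in MCF10A (0.97, SE 0.097, adjusted p = 1.4e-09), and the pyrimidine carrier gene SLC25A33 fell most there (-0.87, SE 0.13, adjusted p = 3.0e-06). Regulators of mitochondrial biogenesis were called 0 higher and 6 lower of 8 in MCF10A, 2 higher and 3 lower of 7 in HCT116 and 3 higher and 4 lower of 7 in the mixture. PPARGC1B, a coactivator, fell in MCF10A (-1.03, SE 0.081, adjusted p = 1.3e-11); its relative PPARGC1A stood at 0.914 ± 0.0603 and 1.19 ± 0.247 CPM there and was not called (0.36, SE 0.39, adjusted p = 0.448). In HCT116 and the mixture ESRRA, a nuclear receptor, led the risers (0.50 and 0.37) and GABPB1, a subunit of nuclear respiratory factor 2, the fallers (-0.64 and -0.87).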

How the data were processed

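Poly(A)-selected, strand-marking paired-end libraries of 150 bases were counted per gene symbol in 18 samples, 3 in each of 6 groups taken from the labels. The authors deposited raw counts, 1 table per library; fastp, STAR, featureCounts and GRCh38 are named in the submitters' processing notes, while the annotation, the strand setting and the treatment of read pairs and of reads that fit several places are not given in the sources used here. Of all counts from 1 to 10, 68.3% were even, so mates may have been counted singly, and halved counts were run as an alternative.

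Counts were tested with edgeR 4.0.16 (quasi-likelihood, TMM factors, filterByExpr, R 4.3.3), 2-sided, with Benjamini-Hochberg adjustment over all genes that passed the filter, in the 6 libraries of each pair of groups or, for differences between responses, as an interaction over 12. All 15 mRNA and rRNA members passed every filter. The standard error of a log2 fold change was taken as its size over the square root of F. Shares are sums over the 37 genes and carry no test. Composition fits set the library size to the summed mitochondrial mRNA counts. Alternatives were DESeq2 1.42.0, upper-quartile factors, library size alone, TMM without the members, no filter, halved counts, a replicate block and each library left out. The fits were also run on simulated counts with the same spread for every gene and with changes larger than those of most members. Smaller changes were not covered by that run. Positions and sequences come from the GENCODE 29 annotation of GRCh38.

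The members and the gene lists were chosen with earlier results of these data known. Named were all mRNA and rRNA members, MT-TP and MT-TY, the called gene of at least 10 CPM with the largest change in each direction per nuclear list and irradiation response, and a fixed set (TFAM, POLRMT, LRPPRC, POLG, TWNK, RRM2B, PPARGC1A). MTCO1P12, MTND2P28 and MTATP6P1 are the nuclear copies that reached 10 CPM. Replicates within a group differed by more than sampling noise in every pair of libraries. A check of the HCT116 genotype label is not reported here.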

Additional observations from a re-analysis of the deposited data

Results flagged for a closer look

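A response that differed between 2 cultures is listed here when the difference itself passed edgeR's quasi-likelihood interaction test with Benjamini-Hochberg adjustment. Between HCT116 and MCF10A 15 of 19 members tested, tRNAs included, did so. Of these, 11 lay on the HCT116 side and 4 on the MCF10A side, beside 15.4% and 21.9% of 18179 genes. Between the mixture and HCT116 1 of 19 did, lower in the mixture, beside 0.149% of 18072 genes. As HCT116 minus MCF10A on the log2 scale, MT-ATP8 stood at 1.16, MT-ND3 at 0.72, MT-ND4L at 0.68, MT-ND2 at 0.45, MT-CO3 at 0.41, MT-ND1 at 0.39, MT-ND5 at 0.39, MT-RNR1 at 0.38, MT-CO2 at 0.36 and MT-CO1 at 0.24. MT-RNR2 at -0.29 and MT-ND4 at -0.20 rose more in MCF10A. Among the tRNAs MT-TP stood at 1.56, MT-TY at -2.98 and MT-TC at -3.23. MT-TC had at most 31 counts in a library and lost its call without any one of 5 libraries, and MT-TY lost its call without irradiated MCF10A replicate 2, at -1.95. As mixture minus HCT116, MT-ND2 stood at -0.28.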

How the results depend on the processing

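The counts of members called in the irradiation responses and between the lines stayed within 1.5 times under every alternative: 10 to 12 higher and 2 to 3 lower in MCF10A, 14 to 15 higher in HCT116, 15 in the mixture, 13 to 15 between non-irradiated lines and 15 between irradiated ones. Mixed against HCT116, non-irradiated, gave 1 member lower instead of 0 under DESeq2, upper-quartile factors, library size alone, no filter and the replicate block, and 1 to 3 higher and 0 to 1 lower with a library left out. Irradiated, it gave 4 higher without a filter and 6 with the replicate block instead of 1, and 0 to 5 with a library left out. The response difference between the lines gave 1 lower instead of 2 under library size alone, TMM without the members and no filter, and 0 to 2 with a library left out. That of mixture and HCT116 gave 2 lower instead of 1 under DESeq2, TMM without the members and no filter, 0 with halved counts, and 0 to 2 with a library left out; MT-ND2 missed the threshold there with upper-quartile factors and library size alone too. Scaled to all members instead of the mRNAs, 5 instead of 3 members lost in MCF10A. With a library left out, the composition fits gave 5 to 8 higher and 2 to 4 lower in HCT116, 1 to 4 lower in the mixture and 2 to 5 lower between the lines. The causes were not tested.

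In non-irradiated HCT116 against MCF10A, TWNK went from -0.16 to 0.041 with upper-quartile factors and 0.037 with library size alone, and RRM2B from -0.047 to 0.16 and 0.15, where the median of all genes moved by as much. MT-ATP8 ranged from -0.11 to 0.46 and MT-TP from -0.053 to 0.33 with a library left out. In the response difference between the lines MT-ATP6 turned to -0.0076 with upper-quartile factors and ranged from -0.024 to 0.15 with a library left out, POLRMT from -0.18 to 0.014 and POLG from -0.20 to 0.045. For mixture minus HCT116, 61.5% of the called genes were higher under DESeq2 and 71.6% under TMM without the members, against 82% as reported. Nuclear respiratory chain genes called higher in MCF10A were 6 with upper-quartile factors instead of 1.

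Without the 10 most abundant nuclear genes the shares were 5.34% and 6.36% in MCF10A (NIR and IR), 9.01% and 12.5% in HCT116 and 8.92% and 12.8% in the mixture; for the mRNAs alone they were 4.60%, 5.21%, 7.26%, 9.96%, 7.09% and 10.2% in the same order.

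Same-numbered libraries deviated together only weakly (r from -0.064 to 0.11 over 15 pairs of groups). The highest values were those of HCT116 with the mixture, 0.11 non-irradiated and 0.094 irradiated, and the next was 0.029. In these contrasts the replicate block called 716 genes instead of 335 and 2220 instead of 1467. A shared replicate effect there was not tested. The labels tie no number to a shared batch, so the replicate block is given here alone. Beside the values above it ended the call of TFAM in HCT116 (-0.16, adjusted p = 0.065, edgeR) and left every member's direction in the irradiation responses as it was. Low counts limited the tRNAs other than MT-TP, which together held 1201 counts.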
